A study of Mus musculus with 5 samples.

Results

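B16F10 cells labelled as overexpressing HIF-1α were compared with B16F10 cells labelled shControl across all genes, with 1 RNA library of each. These are 2 of the 5 libraries of the series, whose other members are labelled HIF-1α knockdown, conventional 3D culture and dynamic suspension culture. B16F10 is a pigmented mouse skin melanoma line of the C57BL/6 strain. The genotype label is overexpression for the first library and WT for shControl, so the name of the second, which points to a control hairpin, and its genotype label differ. The labels name neither the construct that carried HIF-1α nor a clone, and they give every group the same protocol of serum-free spheroid culture on an orbital shaker. Material of 3 repeats went into each library before sequencing, so the comparison has 1 value a group, no replicate check and no p-value. The series title asks about HIF-1α, stemness and the p53 pathway.

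HIF-1α is the oxygen-sensitive subunit of the transcription factor HIF-1. In oxygenated cells prolyl hydroxylases mark the protein for destruction through the VHL ubiquitin ligase, and at low oxygen it pairs with ARNT and binds a short DNA core in front of genes for glycolysis, pH control, angiogenesis and mitochondrial turnover. Its amount is therefore set largely at the level of the protein, which RNA does not report. p53 is held low by MDM2 and MDM4 and, when active, induces genes of cell cycle arrest, repair and death.

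The deposited values sum to 15393189 counts in the overexpression library and 59493240 estimated counts in shControl. The overexpression column, like that of the library labelled knockdown, holds plain counts. The shControl column, like those of both unmodified cultures, holds estimated counts by its pattern, and such counts can divide a fragment that matches several genes among them. Kind of column and group therefore cannot be told apart for this comparison, and the level in the library labelled knockdown, which has the same kind of column as overexpression, is given beside main results. That library's Hif1a was not lower than that of shControl, so it is used here only by its label. All levels are in CPM, counts scaled by TMM to a common library total. A gene was called higher or lower when its CPM differed at least 2-fold and its mean was at least 1 CPM. The exact 95% interval of the ratio, which covers counting error only, also had to leave out 1. This interval takes each unit of the shControl column as 1 count, so it is too narrow if several units stand for 1 fragment.

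Of 54100 genes, 12881 reached a mean of 1 CPM. By the rule 2078 of them (16.1%) were called higher in overexpression and 2594 (20.1%) lower, and the median log2 ratio was −0.02. The balance depended on the kind of sequence, as the histogram of ratios shows. Among the 9035 protein-coding genes with sequence of their own, 1573 (17.4%) were higher and 1091 (12.1%) lower, so 59.0% of the calls were higher against 44.5% over all genes, and their median was 0.13. Own sequence means that under 10% of a gene's exonic bases lay in another gene's exons and under 10% of its 50-base words occurred in another gene. Among the 3419 genes of shared sequence 331 were higher and 1447 lower, and of 733 processed pseudogenes 39 were higher and 499 lower. Pseudogenes took 0.714% of the overexpression counts, 0.918% in the library labelled knockdown and 3.44% in shControl. Counts of list members below are for genes of own sequence, and their shares are read against 17.4% and 12.1%.

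**Figure D1:**
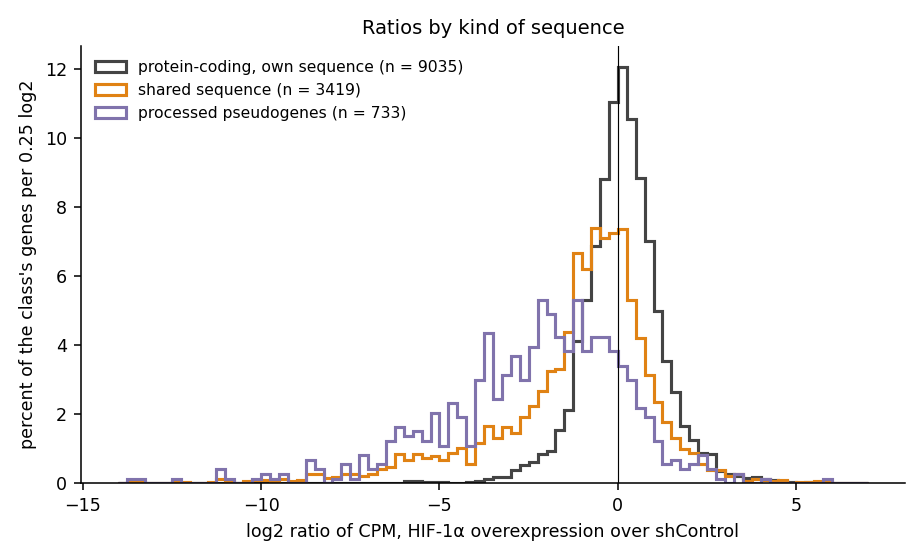
Distribution of the log2 ratio of CPM (x axis, HIF-1α overexpression over shControl) as the percent of each class's genes in steps of 0.25 (y axis) for protein-coding genes of own sequence, genes of shared sequence and processed pseudogenes. The first class is centred near 0 with a median of 0.13, and the processed pseudogenes lie mostly below 0.

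**Figure D2:**
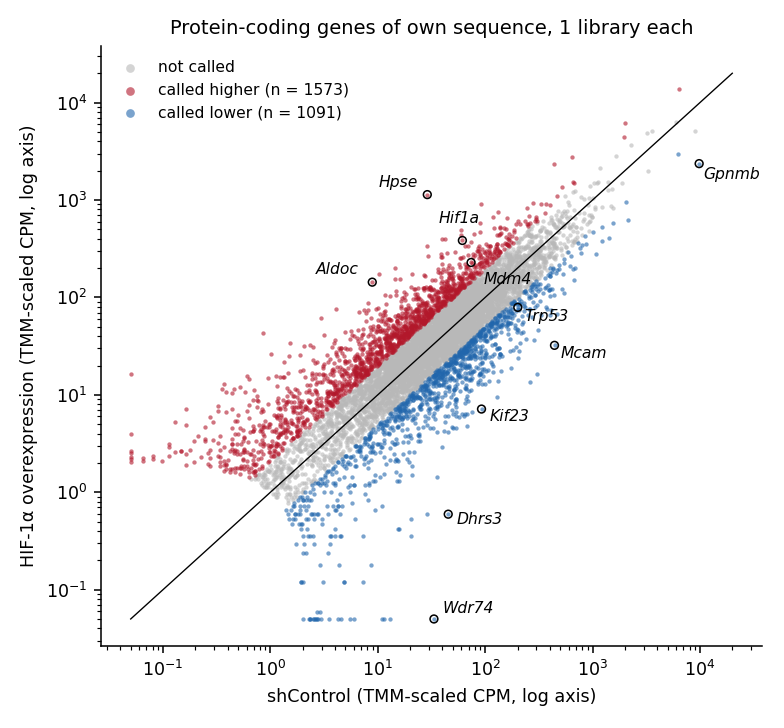
CPM of each measured protein-coding gene of own sequence in HIF-1α overexpression (y axis) against shControl (x axis), both on log axes, with 1 library each and values under 0.05 CPM drawn at the edge. Red points are the 1573 genes called higher, blue points the 1091 called lower, the line marks equal levels, and 10 of the named genes are circled.

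Hif1a RNA was 6.26-fold higher in overexpression. It stood at 384 CPM there, 95.1 CPM in the library labelled knockdown, 542 CPM in conventional 3D culture, 390.5 CPM in dynamic suspension and 61.3 CPM in shControl (log2 ratio 2.65, 95% interval 2.59 to 2.71). The gene spans 73901375 to 73947530 on the plus strand of chromosome 12 in GRCm38. Hif1a RNA was thus high in overexpression and in both unmodified cultures, and low in shControl and the library labelled knockdown. The counts do not separate transcripts of a transgene from those of the genomic copy.

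Of the 12 measured HIF subunits and oxygen sensors 5 were higher and 0 lower, with a median log2 ratio of 0.57. Besides Hif1a these were Epas1, Egln1, Egln3 and Ep300. Epas1, which encodes HIF-2α, had 30.7 CPM in overexpression, against 13.1 CPM in shControl. The prolyl hydroxylase Egln1, itself a known HIF target, had 141 CPM in overexpression, against 50.0 CPM in shControl (log2 ratio 1.49). Its relative Egln3, also a HIF target, had 11.6 CPM in overexpression, against 4.3 CPM in shControl (log2 ratio 1.41). The coactivator Ep300 was higher at 133 CPM in overexpression, against 58.2 CPM in shControl. Arnt, the partner subunit, had 100 CPM in overexpression and 58 CPM in shControl and was not called, nor were Vhl (50.0 CPM in overexpression and 41.9 CPM in shControl) and Egln2 (47.5 CPM in overexpression and 56 CPM in shControl). The list's median was 0.50 over the library labelled knockdown.

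Genes of glycolysis and lactate export that HIF-1 is known to drive leaned higher in overexpression. Among 16 measured glycolytic targets 8 (50.0%) were called higher and 0 lower, all 16 had a log2 ratio above 0, and the median was 1.08. Their CPM summed to 10270.1 in overexpression, 7531.8 in the library labelled knockdown, 12632.8 in conventional 3D culture, 15718.6 in dynamic suspension and 5178.8 in shControl. Aldoc, the brain-type aldolase, had 143 CPM in overexpression, 16.4 CPM in the library labelled knockdown, 134 CPM in conventional 3D culture, 143 CPM in dynamic suspension and 8.88 CPM in shControl. Its log2 ratio of 4.01 (95% interval 3.88 to 4.15) was the highest of the list. The lactate exporter Slc16a3 (MCT4) had 258 CPM in overexpression and 39.1 CPM in shControl, a log2 ratio of 2.72. The neuron-type enolase Eno2 had 123 CPM in overexpression and 21.9 CPM in shControl, and the bifunctional regulator of phosphofructokinase Pfkfb4 had 13.6 CPM in overexpression and 2.71 CPM in shControl. Pdk1, the kinase that shuts pyruvate dehydrogenase, had 123 CPM in overexpression and 29.2 CPM in shControl (log2 ratio 2.07). Muscle-type aldolase Aldoa, among the 10 genes of own sequence with the largest CPM difference, had 4424 CPM in overexpression and 1959 CPM in shControl. The other 8 members, without a call, included the glucose importer Slc2a1, hexokinase Hk2 and lactate dehydrogenase Ldha. Slc2a1 had 74.8 CPM in overexpression, against 46.2 CPM in shControl. Hk2 had 254 CPM in overexpression, against 129 CPM in shControl. Ldha stood at 1488 CPM in overexpression, against 1101 CPM in shControl. Gapdh, Pgk1, Eno1, Pgam1 and Pkm have shared sequence and were not called either. With all members of shared sequence included, 10 of 24 were called higher and 0 lower.

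The windows from 250 bases before to 50 bases after the start of the RNA show where the DNA core bound by HIF lies in the 3 highest hypoxia targets that had a mean of at least 10 CPM and held a match. They are read from RefSeq for GRCm38.p6, 5′ to 3′ on the gene's strand, with each ACGTG or GCGTG, on either strand, in capitals. Aldoc is chr11:78322823-78323122 on the plus strand, 1 of 2 windows of that gene, with matches starting at −50, 12 and 28 relative to the start. Slc16a3 is chr11:120948817-120949116 on the plus strand, with matches at −27 and −14. Ccng2 is chr5:93267323-93267622 on the plus strand, with 1 match at −49.
Aldoc: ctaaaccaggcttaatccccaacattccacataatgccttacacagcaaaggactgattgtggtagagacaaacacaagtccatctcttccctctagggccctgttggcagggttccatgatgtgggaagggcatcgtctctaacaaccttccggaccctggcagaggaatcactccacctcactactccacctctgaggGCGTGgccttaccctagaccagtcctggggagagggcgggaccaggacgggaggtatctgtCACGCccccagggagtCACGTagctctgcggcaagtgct
Slc16a3: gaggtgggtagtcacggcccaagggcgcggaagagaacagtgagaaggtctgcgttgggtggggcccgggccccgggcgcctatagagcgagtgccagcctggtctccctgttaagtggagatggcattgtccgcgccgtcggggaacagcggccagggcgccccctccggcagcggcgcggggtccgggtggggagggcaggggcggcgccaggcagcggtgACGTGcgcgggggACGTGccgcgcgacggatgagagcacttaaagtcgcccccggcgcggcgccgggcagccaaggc
Ccng2: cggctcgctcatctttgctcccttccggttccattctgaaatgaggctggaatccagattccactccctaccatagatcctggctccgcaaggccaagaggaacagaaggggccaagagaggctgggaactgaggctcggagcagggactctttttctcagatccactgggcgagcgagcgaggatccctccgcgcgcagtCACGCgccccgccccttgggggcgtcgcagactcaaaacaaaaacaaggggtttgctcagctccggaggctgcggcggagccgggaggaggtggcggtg

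The core is short and common. At least 1 match stood in 14380 of 32851 windows of all genes (43.8%), in 27 of the 36 windows found for the glycolytic list (75%, 23 of 24 genes matched) and in 39 of the 47 windows of the other hypoxia targets (83.0%, 33 of 45 genes matched). It also stood in 21 of the 28 windows of the mitosis list (75%), a list whose genes were lower. The shares describe the letters in these windows and not binding.

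Other hypoxia targets were more often called higher than lower. Of 30 measured members 13 (43.3%) were higher and 4 (13.3%) lower, and the median was 0.75. Ero1l, the oxidase that forms disulfide bonds in the endoplasmic reticulum, had 669 CPM in overexpression, 122 CPM in the library labelled knockdown, 374 CPM in conventional 3D culture, 1811 CPM in dynamic suspension and 117 CPM in shControl. Hmox1, the haem-degrading enzyme, had 213 CPM in overexpression and 46.4 CPM in shControl, and Ccng2, an unconventional cyclin linked to arrest, had 44.9 CPM in overexpression and 9.82 CPM in shControl. The carbonic anhydrase Car9, a widely used hypoxia marker, had 26.5 CPM in overexpression and 6.41 CPM in shControl (log2 ratio 2.04). The angiogenic factor Vegfa had 129.9 CPM in overexpression, against 43.6 CPM in shControl. The mTOR inhibitor Ddit4 was higher at 133 CPM in overexpression, against 44.7 CPM in shControl. The collagen prolyl hydroxylase P4ha1 was higher at 335 CPM in overexpression, against 112 CPM in shControl. These 4 genes were chosen for their role after the values were seen. The same holds for Bnip3 and, further on, for Mki67, Per1, Kif2c and every list member named without a call other than Arnt, Mdm2 and Cdkn1a. The mitophagy receptor Bnip3, of shared sequence, was also higher at 183 CPM in overexpression and 39.1 CPM in shControl.

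The lower hypoxia targets included Plin2, Angptl4 and Lox. Plin2, which coats lipid droplets, had 62.6 CPM in overexpression and 150.1 CPM in shControl. The lipase inhibitor Angptl4 had 0.357 CPM in overexpression and 2.24 CPM in shControl. The collagen crosslinking enzyme Lox had 0 counts in overexpression and in the library labelled knockdown, against 6.01 CPM in shControl, at least 33.6-fold lower at a floor of 3 counts.

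**Figure D3:**
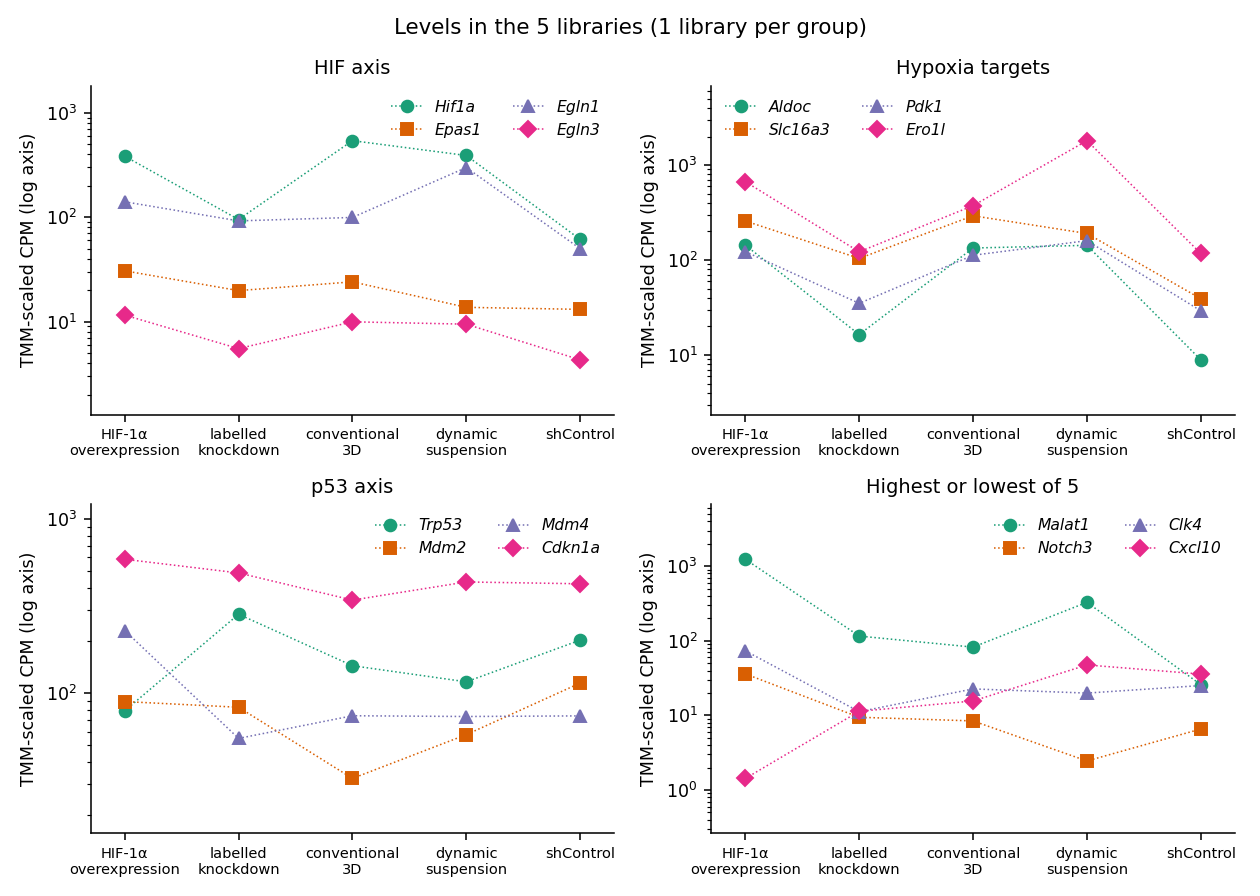
TMM-scaled CPM (y axis, log) of 16 named genes in the 5 libraries (x axis, 1 library per group, points joined only to guide the eye), in panels for the HIF axis, hypoxia targets, the p53 axis and genes at an extreme in overexpression. Hif1a and the hypoxia targets were high in overexpression and both unmodified cultures, whereas Mdm4, Malat1, Notch3 and Clk4 were highest in overexpression.

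On the p53 axis Trp53 was lower and Mdm4 higher, whereas most p53 targets were not called. Trp53 RNA, which encodes p53, stood at 79 CPM in overexpression, 283 CPM in the library labelled knockdown, 143 CPM in conventional 3D culture, 116 CPM in dynamic suspension and 201 CPM in shControl (log2 ratio −1.35, 95% interval −1.43 to −1.27). Overexpression was the lowest of the 5 libraries. Mdm4, which binds and restrains p53, was higher, with 228 CPM in overexpression, 54.9 CPM in the library labelled knockdown, 74 CPM in conventional 3D culture, 73.3 CPM in dynamic suspension and 73.9 CPM in shControl. Its log2 ratio was 1.63 (95% interval 1.57 to 1.69), and the other 4 libraries lay close together. Mdm2, the ubiquitin ligase of p53 and also its target, had 89.3 CPM in overexpression and 114 CPM in shControl and was not called.

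Of 17 measured genes of p53 and its regulators 4 were higher and 3 lower, with a median of 0.22. The higher ones besides Mdm4 were Hipk2, a kinase that phosphorylates p53 (108 CPM in overexpression, 22.2 CPM in shControl), Ppp1r13l, which encodes the p53 inhibitor iASPP (24.7 CPM in overexpression and 7.79 CPM in shControl), and the acetyltransferase Ep300. Hipk2 stood at 159.9 CPM in the library labelled knockdown. The lower ones besides Trp53 were the checkpoint kinase Chek1 (5.24 CPM in overexpression, 42.6 CPM in shControl) and the deacetylase Sirt1 (4.64 CPM in overexpression and 13.5 CPM in shControl). Cdkn2a, which encodes the MDM2 inhibitor p19Arf, was at 0 in both libraries.

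The p53 targets as a group stayed near the background. Among 33 measured members 5 were higher (15.2%, against 17.4% of all such genes) and 3 lower (9.09%, against 12.1%), with a median of 0.19. Cdkn1a, the p21 inhibitor of cyclin-dependent kinases, had 586 CPM in overexpression and 424 CPM in shControl (log2 ratio 0.47) and was not called. The death effector Bbc3 (PUMA) had 22.5 CPM in overexpression and 14.1 CPM in shControl and cyclin G1 (Ccng1) 538 CPM in overexpression and 473 CPM in shControl, also without a call. The higher targets were a mixed group that included Dcxr, Trim2, Phlda3 and Trp53inp1. The xylulose reductase Dcxr had 78.8 CPM in overexpression, against 24 CPM in shControl. The ubiquitin ligase Trim2 had 83.8 CPM in overexpression, against 28.1 CPM in shControl. The Akt inhibitor Phlda3 had 444 CPM in overexpression, against 167 CPM in shControl. The p53 cofactor Trp53inp1 was higher at 253 CPM in overexpression, against 113 CPM in shControl. The lower ones were the exonuclease Aen and the mitotic genes Ckap2 and Gtse1. Aen had 58.8 CPM in overexpression, against 146 CPM in shControl. Gtse1, the lowest of them, stood at 49.9 CPM in overexpression, against 141 CPM in shControl.

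The stemness and drug efflux markers split evenly, with 5 of 16 measured members higher and 5 lower and a median of 0.11 that was −0.01 under TMM factors from protein-coding genes of own sequence. Higher were Kdm5b, Abcc1, Sall4, Tert and the receptor Notch1. The H3K4 demethylase Kdm5b, known from slow-cycling melanoma cells, had 137 CPM in overexpression, against 43.8 CPM in shControl. The efflux pump Abcc1 had 159 CPM in overexpression, against 58.5 CPM in shControl. The pluripotency factor Sall4 stood at 4.41 CPM in overexpression, against 1.43 CPM in shControl, and the telomerase subunit Tert at 3.22 CPM in overexpression, against 1.12 CPM in shControl. Lower were Kit, the stem cell factor receptor of melanoblasts, the pluripotency factors Klf4 and Myc, the intermediate filament Nes and the aldehyde dehydrogenase Aldh1a3. Kit had 2 counts in overexpression, and its level in shControl was 40.6-fold higher with a counting interval of 11.1 to 337. Klf4 had 0.357 CPM in overexpression, against 2.35 CPM in shControl. Nes had 24.1 CPM in overexpression, against 68.6 CPM in shControl. Myc had 33.8 CPM in overexpression and 70.1 CPM in shControl, and its call was lost when libraries were scaled by total counts. Cd44 had 258 CPM in overexpression and 439 CPM in shControl, without a call. Of the 33 members 17 did not reach a mean of 1 CPM or had shared sequence, and Sox2, Nanog, Lin28a, Prom1 and Cd34 had 0 counts in overexpression and in the library labelled knockdown. Their levels in shControl were low too, from 0.130 CPM for Prom1 and Cd34 to 1.19 CPM for Sox2. In all, 12 of the 33 members were at 0 in overexpression, 10 in the library labelled knockdown, 8 in conventional 3D culture, 4 in dynamic suspension and 2 in shControl, so zeros were more frequent in the plain-count columns.

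The lists with the lowest medians were those of the cell cycle. All 24 measured genes of mitosis and the spindle were lower in overexpression, with log2 ratios of −3.68 to −1.43 and a median of −2.62. Of 24 measured DNA replication genes 22 (91.7%) were lower and 0 higher, with a median of −2.21, against 12.1% lower among protein-coding genes of own sequence. The CPM of the mitosis genes summed to 561.1 in overexpression, 2657.0 in the library labelled knockdown, 1048.4 in conventional 3D culture, 253.4 in dynamic suspension and 3147.0 in shControl. Those of the replication genes summed to 915.7 in overexpression, 5537.1 in the library labelled knockdown, 1305.1 in conventional 3D culture, 555.0 in dynamic suspension and 3740.2 in shControl. All 24 mitosis genes were lower in overexpression than in the library labelled knockdown and than in conventional 3D culture, and all 24 were higher than in dynamic suspension. Overexpression therefore lay between both unmodified cultures, and shControl and the library labelled knockdown stood apart above them.

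**Figure D4:**
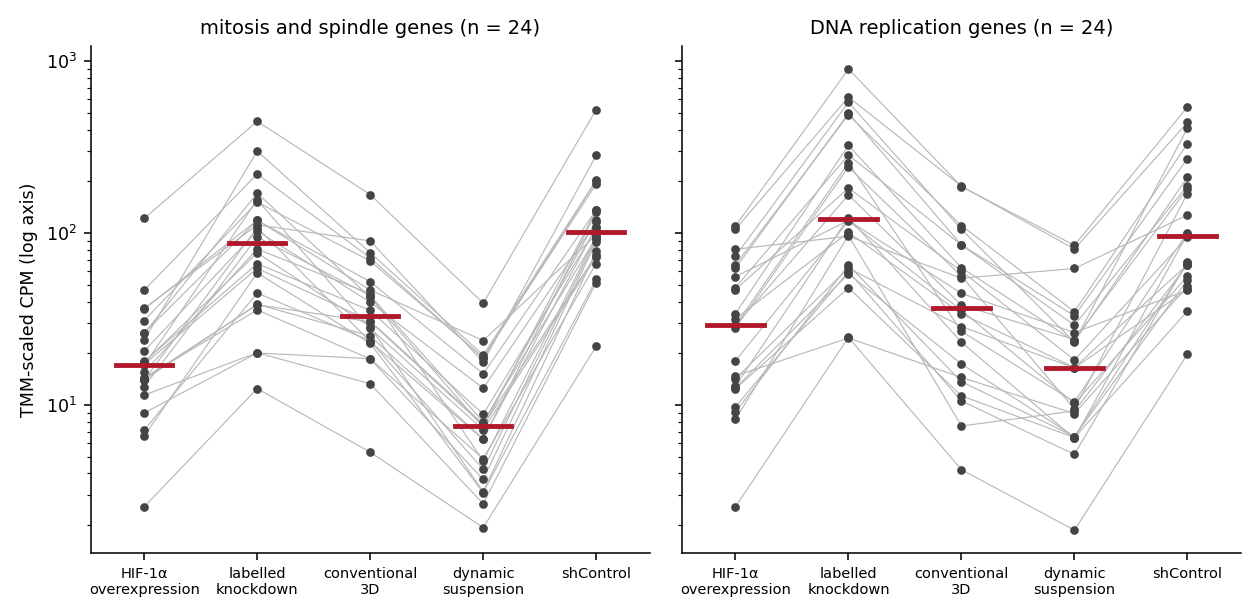
TMM-scaled CPM (y axis, log) of the 24 measured mitosis genes (left) and 24 DNA replication genes (right) of own sequence in the 5 libraries (x axis, 1 library per group). Points are genes, grey lines join a gene's values and red bars are medians, which for mitosis genes were 17.2 CPM in overexpression and 102 CPM in shControl.

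Among the mitosis genes the kinesin Kif23, which builds the midbody, had 7.14 CPM in overexpression, 44.8 CPM in the library labelled knockdown and 92.4 CPM in shControl. Its log2 ratio was −3.68 (95% interval −3.97 to −3.43). Survivin (Birc5), of the chromosomal passenger complex, had 14 CPM in overexpression and 133 CPM in shControl. Foxm1, a transcription factor of mitotic genes, had 24 CPM in overexpression and 203 CPM in shControl, and the spindle checkpoint kinase Ttk had 2.56 CPM in overexpression and 21.9 CPM in shControl. The proliferation antigen Mki67 had 36.6 CPM in overexpression and 283 CPM in shControl. With the 8 members of shared sequence included, all 32 mitosis genes were lower.

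The replication genes included thymidylate synthase Tyms of thymidine synthesis (8.28 CPM in overexpression, 65.4 CPM in shControl). They also included the initiation factors Mcm10 (12.9 CPM in overexpression and 98.8 CPM in shControl) and Gins1 (2.56 CPM in overexpression and 19.7 CPM in shControl). The 2 members without a call were the clamp loader Rfc1 (80.6 CPM in overexpression, 127 CPM in shControl) and the transcription factor E2f1 (55.8 CPM in overexpression and 46.6 CPM in shControl). The G1 regulators did not share this pattern, with 1 of 12 higher and 3 lower. Cyclin D2 (Ccnd2) had 1534 CPM in overexpression and 662 CPM in shControl, whereas E2f2 had 5.48 CPM in overexpression and 20.7 CPM in shControl. Cdkn1b, the p27 inhibitor, had 128 CPM in overexpression and 66.8 CPM in shControl, without a call.

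The CHR element TTTGAA, known as a site of cell-cycle repression by the DREAM complex near starts of mitotic genes, is shown for the 3 lowest members that had a mean of at least 10 CPM and held a match. It is in capitals on either strand (TTCAAA on the other). Kif23 is chr9:61946750-61947049 on the minus strand with a match at 3, Ttk is chr9:83834439-83834738 on the plus strand with a match at 8, and Kif2c is chr4:117178723-117179022 on the minus strand with a match at −103. These windows too are from RefSeq, GRCm38.p6.
Kif23: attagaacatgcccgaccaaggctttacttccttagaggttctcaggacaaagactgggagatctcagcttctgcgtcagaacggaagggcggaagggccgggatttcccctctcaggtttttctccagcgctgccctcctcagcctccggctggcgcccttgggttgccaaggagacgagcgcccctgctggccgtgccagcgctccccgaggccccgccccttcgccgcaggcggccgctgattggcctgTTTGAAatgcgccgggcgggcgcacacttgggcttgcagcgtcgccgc
Ttk: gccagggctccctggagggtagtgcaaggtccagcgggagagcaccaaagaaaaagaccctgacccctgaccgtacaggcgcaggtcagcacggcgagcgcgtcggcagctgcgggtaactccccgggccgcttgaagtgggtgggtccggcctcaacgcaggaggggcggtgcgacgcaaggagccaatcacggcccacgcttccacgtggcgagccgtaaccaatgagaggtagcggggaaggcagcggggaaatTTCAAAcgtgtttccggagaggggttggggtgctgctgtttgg
Kif2c: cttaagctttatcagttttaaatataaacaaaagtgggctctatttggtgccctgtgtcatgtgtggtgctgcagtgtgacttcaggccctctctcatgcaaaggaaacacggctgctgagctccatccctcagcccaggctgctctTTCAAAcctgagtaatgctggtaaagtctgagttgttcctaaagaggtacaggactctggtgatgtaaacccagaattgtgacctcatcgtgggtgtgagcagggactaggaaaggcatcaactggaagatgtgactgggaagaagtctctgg

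TTTGAA stood in 21 of 28 windows of the mitosis list (75%, 26 of 32 genes matched), in 2 of 30 of the replication list (6.67%) and in 5878 of all 32851 (17.9%). The box CCAAT, on either strand, stood in 24 of the 28 mitosis windows (85.7%) and in 37.4% of all. It was also common in windows of lists whose genes were more often higher, at 72.7% for cholesterol genes and 64% for clock genes.

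Ribosome production genes were mostly lower and repair genes were more often lower than higher. Of 23 measured genes of homologous recombination and repair 8 (34.8%) were lower and 1 higher, with a median of −0.67. The BRCA1 partner Bard1 had 3.99 CPM in overexpression, against 24 CPM in shControl. The exonuclease Exo1 was lower at 6.13 CPM in overexpression, against 44.7 CPM in shControl. The higher one was Prkdc, the DNA-dependent protein kinase of end joining, with 57.8 CPM in overexpression and 14.9 CPM in shControl. Of 34 measured ribosome biogenesis genes 20 (58.8%) were lower and 0 higher, with a median of −1.15 over shControl and −1.29 over the library labelled knockdown. Dyskerin (Dkc1), which guides pseudouridylation of ribosomal RNA, had 16.2 CPM in overexpression, against 88.9 CPM in shControl. The snoRNP protein Nop58 had 42.7 CPM in overexpression, against 216 CPM in shControl. The nucleolar protein Wdr74 had 0 counts in overexpression, 0.263 CPM in the library labelled knockdown, 22.9 CPM in conventional 3D culture, 18.4 CPM in dynamic suspension and 33.3 CPM in shControl. It was at least 187-fold lower, with both plain-count columns at or near 0.

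Circadian clock genes had the highest median of the lists with more than 10 measured members. Of 17 members 11 (64.7%) were higher and 1 lower, and the median was 1.28 over shControl and 1.83 over the library labelled knockdown. Their CPM summed to 1324.8 in overexpression, 765.3 in the library labelled knockdown, 1059.8 in conventional 3D culture, 1252.9 in dynamic suspension and 643.9 in shControl. As a group they were thus high in both unmodified cultures too, unlike Per3 below. The negative-limb genes Per1, Per2 and Per3, which repress CLOCK and BMAL1, were all higher. Per3 had 23 CPM in overexpression, 2.17 CPM in the library labelled knockdown, 5.24 CPM in conventional 3D culture, 5.48 CPM in dynamic suspension and 2.48 CPM in shControl. Per2 had 3.99 CPM in overexpression and 0.503 CPM in shControl, and Per1 had 102 CPM in overexpression and 23.6 CPM in shControl. The output factor Tef had 368 CPM in overexpression and 74.4 CPM in shControl, and its relative Dbp, of shared sequence, had 78.8 CPM in overexpression and 4.45 CPM in shControl. The nuclear receptor Rora, also counted among the hypoxia targets, had 43.6 CPM in overexpression and 9.64 CPM in shControl. Arntl, which encodes the positive factor BMAL1, was the lower one, with 6.85 CPM in overexpression and 16.3 CPM in shControl. The labels give no time of day or of medium change for the harvest.

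The windows of the 2 highest clock genes that hold the E-box CACGTG bound by CLOCK and BMAL1 are shown with it in capitals. It reads the same on both strands and contains the core ACGTG searched above. Tef is chr15:81802423-81802722 on the plus strand with the match at −127, and Per1 is chr11:69098699-69098998 on the plus strand with the match at −166. Each is 1 of 2 windows of its gene (RefSeq, GRCm38.p6).
Tef: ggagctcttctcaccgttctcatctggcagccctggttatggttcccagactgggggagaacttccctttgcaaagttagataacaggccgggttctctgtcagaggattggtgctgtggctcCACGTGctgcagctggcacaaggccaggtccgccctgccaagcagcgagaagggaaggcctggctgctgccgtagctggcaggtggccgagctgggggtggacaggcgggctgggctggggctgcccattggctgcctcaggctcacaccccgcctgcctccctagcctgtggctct
Per1: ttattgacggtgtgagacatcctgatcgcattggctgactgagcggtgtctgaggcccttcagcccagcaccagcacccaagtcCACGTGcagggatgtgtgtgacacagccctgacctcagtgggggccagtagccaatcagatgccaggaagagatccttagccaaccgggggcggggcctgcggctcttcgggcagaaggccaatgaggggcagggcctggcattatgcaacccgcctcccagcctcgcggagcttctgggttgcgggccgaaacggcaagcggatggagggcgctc

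CACGTG stood in 6 of 25 windows of the clock list (24.0%, 17 of 21 genes matched) and in 2349 of all 32851 (7.15%). Its share was as large in lists besides the clock list, at 27.3% of the windows of the cholesterol list and 24.4% of those of the ribosome biogenesis list, whose called genes were all lower.

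Lipid synthesis genes were more often higher than lower. Of 18 measured cholesterol genes 10 (55.6%) were higher and 0 lower, with a median of 1.04 over shControl and 0.23 over the library labelled knockdown. The sterol sensor partner Insig1 had 497 CPM in overexpression, 93.7 CPM in the library labelled knockdown, 385 CPM in conventional 3D culture, 168 CPM in dynamic suspension and 59.5 CPM in shControl. The mevalonate pathway decarboxylase Mvd had 58.1 CPM in overexpression, against 13.1 CPM in shControl. Of 17 fatty acid genes 6 were higher and 1 lower, with a median of 0.73, which was −0.15 over the library labelled knockdown. The desaturase Scd2 had 2755 CPM in overexpression, 2289 CPM in the library labelled knockdown and 647 CPM in shControl, and Scd1 had 263 CPM in overexpression, 172 CPM in the library labelled knockdown and 39.4 CPM in shControl. The lipogenic factor Thrsp had 11.3 CPM in overexpression, 0.459 CPM in the library labelled knockdown and 0.698 CPM in shControl. Fads2, a desaturase of polyunsaturated fatty acids, was the lower member, with 72.1 CPM in overexpression and 149 CPM in shControl, a call lost with total-count scaling.

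The melanocyte identity of both libraries was plain, and single pigment genes differed in both directions. All 7 melanocyte markers were measured, with a summed 27591.0 CPM in overexpression and 24361.0 CPM in shControl, while epithelial and erythroid markers all lay under a mean of 1 CPM. Of 23 measured lineage and pigment genes 6 were higher and 5 lower, with a median of 0.09 that was −0.03 with TMM factors from protein-coding genes of own sequence. Dct, which makes eumelanin precursors, had 13722 CPM in overexpression, 4345 CPM in the library labelled knockdown, 11693 CPM in conventional 3D culture, 6619 CPM in dynamic suspension and 6397 CPM in shControl, a call lost under those factors. The melanosomal transporter Oca2 had 165 CPM in overexpression and 27.5 CPM in shControl, and the melanosome motor Myo5a had 2337 CPM in overexpression, 219.5 CPM in the library labelled knockdown and 438 CPM in shControl. Gpnmb, a melanosomal glycoprotein, had the largest CPM difference of all genes of own sequence. It stood at 2362 CPM in overexpression, 5171 CPM in the library labelled knockdown, 3596 CPM in conventional 3D culture, 15738 CPM in dynamic suspension and 9828 CPM in shControl. The melanosomal antigen Mlana was lower, with 375 CPM in overexpression and 1219 CPM in shControl. Mitf, the lineage master regulator, had 158 CPM in overexpression and 314 CPM in shControl, without a call.

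Most matrix genes were lower. Of 29 measured extracellular matrix genes 16 (55.2%) were lower and 5 higher, with a median of −1.77. Genes at 0 in overexpression lie below this median even at their bound, so setting them to it could not move the median. Of 15 mesenchymal and invasive switch genes 7 were lower and 2 higher, with a median of −0.48. Fibronectin (Fn1) had 13 CPM in overexpression, 130.0 CPM in the library labelled knockdown, 44.7 CPM in conventional 3D culture, 21.3 CPM in dynamic suspension and 84.9 CPM in shControl. The matricellular protein Sparc had 627 CPM in overexpression, against 2140.2 CPM in shControl. N-cadherin (Cdh2) had 39.7 CPM in overexpression, against 112 CPM in shControl. The transcription factor Snai2 was lower at 0.953 CPM in overexpression, against 4.45 CPM in shControl. The adhesion molecule Mcam, a melanoma progression marker, had 32.2 CPM in overexpression, 344 CPM in the library labelled knockdown, 12.7 CPM in conventional 3D culture, 152 CPM in dynamic suspension and 442 CPM in shControl. Among the 5 higher members were 3 that encode basement membrane proteins. Laminin α5 (Lama5) had 266 CPM in overexpression, against 29.6 CPM in shControl. Laminin β2 (Lamb2) had 324 CPM in overexpression, against 85.7 CPM in shControl. Perlecan (Hspg2) stood at 352 CPM in overexpression, 526 CPM in the library labelled knockdown and 128 CPM in shControl, so it was lower in overexpression than in the library labelled knockdown. The receptor kinase Axl, of the invasive state, was also higher, with 123 CPM in overexpression and 30.1 CPM in shControl.

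The matrix list's median over the library labelled knockdown was 0.00, and 14 of its 29 genes were lower in overexpression than there. This median fell on genes with 0 counts in both libraries, so it is no measured equality. Of the 29 genes 6 had 0 counts in overexpression. Col1a2, Bgn, Thbs2, Col5a2 and Dcn had 0 counts in overexpression, and 4 of these 5, all but Col1a2, had 0 in the library labelled knockdown too. Against shControl they were at least 61.7-fold (Col1a2), 30.8-fold (Bgn), 25.4-fold (Thbs2), 19.6-fold (Col5a2) and 14-fold lower (Dcn). In all, 14 protein-coding genes of own sequence had 0 counts in both plain-count columns and at least 1 CPM in each of the 3 estimated columns, and 0 genes showed the reverse. Among the 14 were smooth muscle actin Acta2 (0 CPM in overexpression, 2.29 CPM in shControl) and the chemokine Cxcl1 (0 CPM in overexpression and 11.5 CPM in shControl). Of 7 fibroblast markers measured, 4 were lower and 1 higher. The 4 lower ones, Col1a1, Col1a2, Col3a1 and Dcn, are also members of the matrix list and so are no separate count. The markers' summed level was 51.6 CPM in overexpression, 53.7 CPM in the library labelled knockdown, 160 CPM in conventional 3D culture, 66.1 CPM in dynamic suspension and 72.1 CPM in shControl. In bulk RNA fewer cells of a type and less RNA per cell cannot be told apart, and the part of fibroblast-type RNA in the matrix result was not tested.

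Proteases and integrins differed gene by gene. Heparanase (Hpse), which cleaves heparan sulfate of the matrix, had 1136 CPM in overexpression, 11.3 CPM in the library labelled knockdown, 997 CPM in conventional 3D culture, 349.8 CPM in dynamic suspension and 28.9 CPM in shControl. Of 21 measured proteases and inhibitors 4 were higher and 4 lower. The higher ones included the aggrecanase relative Adamts1 (928 CPM in overexpression, 280.2 CPM in shControl) and the lower ones the plasminogen activator Plat (0.714 CPM in overexpression and 4.68 CPM in shControl). Integrin β3 (Itgb3) had 396 CPM in overexpression, 24 CPM in the library labelled knockdown, 759 CPM in conventional 3D culture, 145 CPM in dynamic suspension and 41.8 CPM in shControl. Its partner Itgav had 335 CPM in overexpression and 106 CPM in shControl. Of 27 integrins and adhesion receptors 8 were higher and 6 lower, with a median of 0.51.

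Among signalling pathways, 5 of 16 Notch genes were higher (31.3%) and 0 lower, with a median of 0.60. The receptor Notch3 had 36 CPM in overexpression, 9.45 CPM in the library labelled knockdown, 8.44 CPM in conventional 3D culture, 2.45 CPM in dynamic suspension and 6.58 CPM in shControl. The glycosyltransferase Mfng, which modifies Notch, had 24.9 CPM in overexpression and 1.48 CPM in shControl, and the ligand Jag2 22.8 CPM in overexpression and 6.1 CPM in shControl. Of 31 TGF-β and BMP genes 8 were higher and 5 lower. The ligand Tgfb1 had 108 CPM in overexpression, against 23.2 CPM in shControl. Its binding protein Ltbp4 was highest of all 5 libraries in overexpression, with 125 CPM there and 27.1 CPM in shControl. The target Id3 was lower at 0.536 CPM in overexpression, against 6.1 CPM in shControl. Of 21 Wnt genes 4 were higher and 1 lower, the receptor Fzd9 standing at 22 CPM in overexpression and 1.35 CPM in shControl. Immediate early genes included 7 higher and 2 lower of 21, with the orphan receptor Nr4a3 at 402 CPM in overexpression and 39.5 CPM in shControl.

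Chemokine and NF-κB genes were called only lower, and interferon genes split. Of 17 chemokine and NF-κB genes 9 (52.9%) were lower and 0 higher, with a median of −1.06 over shControl and −0.27 over the library labelled knockdown. The interferon-induced chemokine Cxcl10 had 1.43 CPM in overexpression, 11.4 CPM in the library labelled knockdown, 15.6 CPM in conventional 3D culture, 47.5 CPM in dynamic suspension and 35.8 CPM in shControl. The cytokine Lif had 0.536 CPM in overexpression and 20.3 CPM in shControl, and the IκB-family protein Bcl3 0.357 CPM in overexpression and 4.43 CPM in shControl. Of 24 interferon response genes 6 were higher, such as viperin (Rsad2, 90.8 CPM in overexpression, 16.5 CPM in shControl), and 3 lower, such as the GTPase Gbp2 (1.19 CPM in overexpression and 8.28 CPM in shControl). All 24 had less CPM in overexpression than in either unmodified culture. The MHC class I gene H2-K1 had 84.5 CPM in overexpression and 19 CPM in shControl, and of 14 immune cell markers only Cd68 was measured, with 8.4 CPM in overexpression and 3.56 CPM in shControl.

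Genes of the integrated stress response and of amino acid supply were lower in 11 of 36 measured members (30.6%) and higher in 2, with a median of −0.80 over shControl and −1.74 over the library labelled knockdown. The one-carbon enzyme Shmt2 had 80.6 CPM in overexpression, 930.3 CPM in the library labelled knockdown and 371 CPM in shControl. The serine synthesis enzyme Psat1 had 84.1 CPM in overexpression, 494 CPM in the library labelled knockdown and 306 CPM in shControl. For both enzymes overexpression was the lowest of these 3 libraries and the library labelled knockdown the highest. Both unmodified cultures were low as well. Shmt2 had 134 CPM in conventional 3D culture and 93.1 CPM in dynamic suspension. Psat1 had 97.5 CPM in conventional 3D culture and 65.9 CPM in dynamic suspension, the latter below overexpression. The list summed to 3740.4 CPM in overexpression, 4330.8 CPM in conventional 3D culture, 4320.4 CPM in dynamic suspension and 6754.2 CPM in shControl. The stress hormone Gdf15 was higher instead, with 7.2 CPM in overexpression and 0.162 CPM in shControl. Of 30 NRF2 and antioxidant genes 9 (30%) were higher and 1 lower. The quinone reductase Nqo1 had 25.7 CPM in overexpression and 1.9 CPM in shControl, and the glutathione transferase Gsta4 103 CPM in overexpression and 12.9 CPM in shControl. The lower member was Nfe2l2, which encodes NRF2 itself, with 72 CPM in overexpression and 228 CPM in shControl. The iron storage subunit Fth1 had 6173 CPM in overexpression and 2021 CPM in shControl, and the ferroxidase Cp had 4.82 CPM in overexpression and 67.4 CPM in shControl.

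The 15 highest protein-coding genes of own sequence with a mean of at least 10 CPM included Cort, Hpse, Btn2a2, Myom1, Pygm, Ache, Mfng, Aldoc, Fzd9, Rasd2, Gstm6, Map1a, Nqo1 and Cdh13. Their log2 ratios ran from 3.68 (Cdh13) to 5.58 (Cort). All 15 were also at least 2-fold above shControl in conventional 3D culture, and 12 were above it in the library labelled knockdown. The genes were picked by their ratio to shControl, which favours low shControl values. These counts reuse the same shControl values, so they are no separate evidence. The neuropeptide Cort had 43.3 CPM in overexpression, against 0.86 CPM in shControl. Myom1, of the sarcomere M band, stood at 61.9 CPM in overexpression, 247 CPM in conventional 3D culture, 2.66 CPM in dynamic suspension and 2.94 CPM in shControl. It was low outside overexpression and conventional 3D culture. Muscle glycogen phosphorylase Pygm had 75.8 CPM in overexpression, against 4.09 CPM in shControl. Acetylcholinesterase (Ache) had 174 CPM in overexpression and 10.2 CPM in shControl.

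The 15 lowest by the same rule were Wdr74, Dhrs3, Krt80, Nppb, Lif, Cxcl10, Gxylt2, Lgals3, Cp, Mcam, Tg, Lmnb1, Pole2, Kif23 and Cep55. Of them 14 were also at least 2-fold below shControl in conventional 3D culture, a count that again reuses the shControl values by which they were picked. The retinal reductase Dhrs3 had 0.595 CPM in overexpression, 16.8 CPM in the library labelled knockdown, 0.977 CPM in conventional 3D culture, 211 CPM in dynamic suspension and 45.3 CPM in shControl. Galectin-3 (Lgals3), a β-galactoside binding protein, had 16.5 CPM in overexpression, 24.7 CPM in the library labelled knockdown, 32.5 CPM in conventional 3D culture, 301 CPM in dynamic suspension and 303 CPM in shControl. The xylosyltransferase Gxylt2 had 13.4 CPM in overexpression and 261 CPM in shControl, and the nuclear lamina protein Lmnb1, whose loss is a known mark of senescent cells, 9.53 CPM in overexpression and 129 CPM in shControl.

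**Figure D5:**
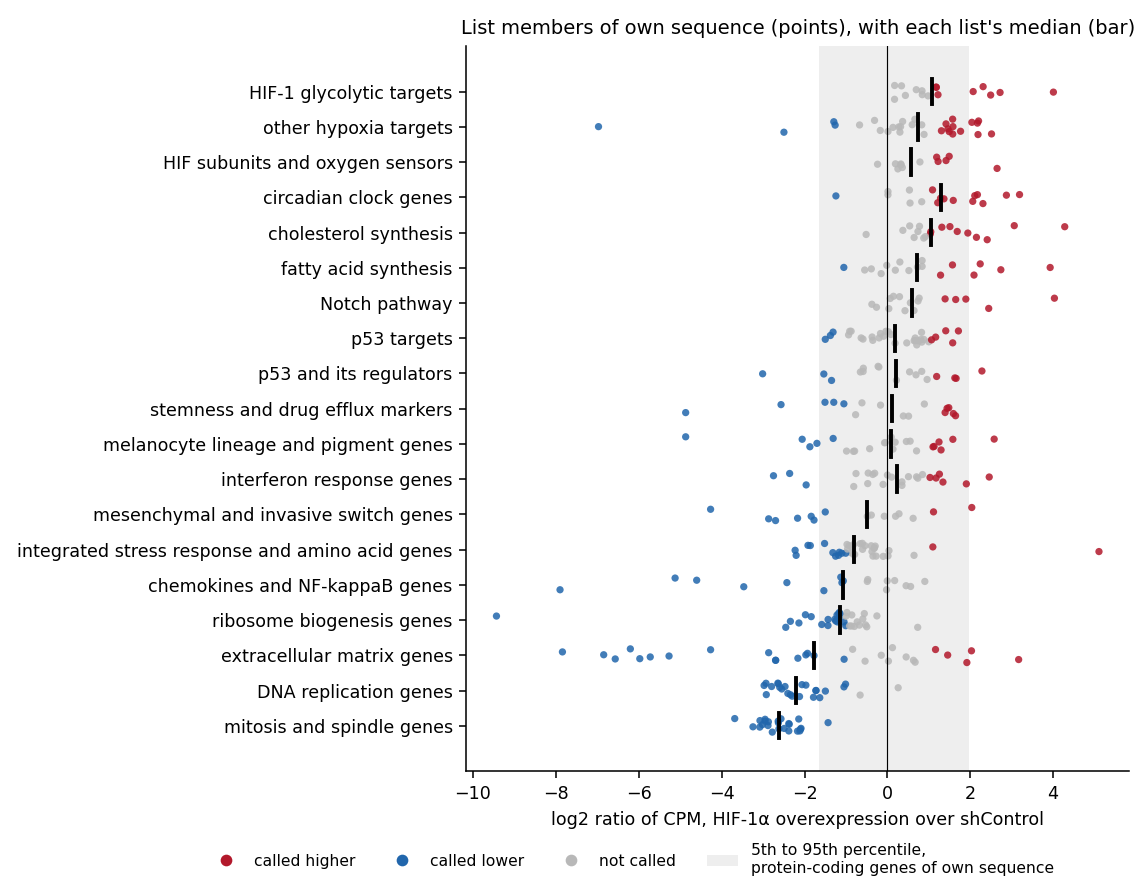
Log2 ratio of CPM (x axis, HIF-1α overexpression over shControl) of the measured members of own sequence in 19 of the gene lists (rows), with red for genes called higher, blue for lower, grey for no call, a black bar at each list's median and a grey band from the 5th to the 95th percentile of protein-coding genes of own sequence (−1.62 to 1.94). The medians run from 1.28 for clock genes to −2.62 for mitosis genes.

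Few genes were at an extreme against every other library. Of the 1573 protein-coding genes of own sequence called higher, 103 (6.55%) were also at least 2-fold above each of the other 4 libraries, and of the 1091 called lower 50 (4.58%) were at least 2-fold below each. Among genes of own sequence of any kind, non-coding ones included, the highest by the smallest such difference were Mdm4, Notch3, Ltbp4 and Per3, given above, and Malat1, Clk4, 2900052L18Rik and Ppp4r1l-ps. Malat1, a nuclear non-coding RNA of splicing speckles, had 1240.0 CPM in overexpression, 116 CPM in the library labelled knockdown, 82.3 CPM in conventional 3D culture, 328 CPM in dynamic suspension and 25.8 CPM in shControl. Clk4, a kinase of splicing factors, had 73.4 CPM in overexpression, 11.2 CPM in the library labelled knockdown, 22.7 CPM in conventional 3D culture, 19.9 CPM in dynamic suspension and 25.1 CPM in shControl. The lowest were Wdr74, Krt80, Cxcl10, Zfp469, Aatf, mt-Ts1, Psmg3 and Hnrnpd. The nucleolar factor Aatf had 16.8 CPM in overexpression, 56.6 CPM in the library labelled knockdown, 47.8 CPM in conventional 3D culture, 41 CPM in dynamic suspension and 89.2 CPM in shControl. The keratin Krt80 had 0.357 CPM in overexpression, 15.9 CPM in the library labelled knockdown, 0.827 CPM in conventional 3D culture, 1.03 CPM in dynamic suspension and 20.4 CPM in shControl, with 6 counts in overexpression.

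Genes of shared sequence gave the widest ratios and are uncertain. The lowest were Gm12671, Gm10359, Gm15459, Akap2, Raver1 and Nme2, which were at or near 0 in both plain-count columns. Raver1 had 0 counts in overexpression, 0 in the library labelled knockdown and 118 CPM in shControl, and the nucleoside diphosphate kinase Nme2 had 0.179 CPM in overexpression, 0.919 CPM in the library labelled knockdown and 509 CPM in shControl. Of the 151 measured genes at 0 in overexpression, 129 had shared sequence and 108 were at 0 in the library labelled knockdown too. The highest of shared sequence were Gm14964, Hspa1b, Dbp, Gm9821, Phyhipl and Tpi-rs11. The inducible chaperone Hspa1b, a near copy of Hspa1a, had 50.0 CPM in overexpression, 4.46 CPM in the library labelled knockdown and 2.74 CPM in shControl.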

How the data were processed

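RNA of 5 libraries of the B16F10 line was measured, and the comparison uses the library labelled HIF-1α overexpression and that labelled shControl. Per the labels' protocols, 3 repeats were pooled into each poly(A)-selected, strand-specific library, which was read as pairs of 150 bases. The submitters' processing notes name the tools cutadapt, HISAT2 and StringTie and the genome builds GRCm38.p6 and mm10. Which program counted, and whether by strand, is not given in the sources used here. The deposited values of the overexpression and labelled knockdown columns are plain counts by their pattern. The deposited values of the other 3 columns, shControl among them, are estimated counts by their pattern, since low values pile up at multiples of 4. If 4 units stand for 1 fragment, shControl holds 14873310 fragments.

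Counts were used as deposited, and 0 columns were left unmatched. Libraries were scaled by TMM factors over all 5 (1.09 for overexpression and 1.04 for shControl, from edgeR 4.0.16 in R 4.3.3), and the log2 ratio was taken with a prior count of 2. The Clopper-Pearson 95% interval of the ratio (scipy 1.17.1) covers counting error only and for estimated counts is approximate. With 4 units of shControl taken as 1 fragment the intervals were wider, at 2.55 to 2.75 for Hif1a and 3.76 to 4.27 for Aldoc. Genes with 0 counts got a bound from a floor of 3 counts. All 54100 identifiers matched GENCODE release 21 for GRCm38, from which shared sequence was computed. With 1 library a group no test across replicates was made. The interval and the call were tested on simulated Poisson counts at the totals of the deposited columns, a setting that does not cover several units per fragment. Alternatives were total counts, TMM over both libraries, DESeq2 1.42.0 size factors, TMM from protein-coding genes of own sequence, other prior counts, other filters and a stricter call. Reading 4 units as 1 fragment, and asking for the same difference from the library labelled knockdown, were added after seeing the data.

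The members and gene lists (56 lists) were chosen with earlier results of these data known. Genes were named by a rule: 6 of the HIF and p53 axes, the 15 highest and 15 lowest protein-coding genes of own sequence with a mean of at least 10 CPM, up to 4 highest and 4 lowest called members of each list, the 6 highest and 6 lowest of shared sequence, the 10 with the largest CPM difference and the 8 highest and 8 lowest against each other library. Promoter windows were scanned for exact matches on both strands. Windows printed in full were limited to called genes of own sequence with a mean of at least 10 CPM. Those on chromosome 18 or outside the assembled chromosomes were left out. A few genes that this rule names are not reported here.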

Additional observations from a re-analysis of the deposited data

How the results depend on the processing

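The Hif1a log2 ratio of 2.65 was 2.72 with total counts and 2.52 with TMM factors from protein-coding genes of own sequence, and moved by less than its interval under the other scalings and prior counts. The counts of 2078 higher and 2594 lower genes were 3452 and 3989 with no filter on low values and 1256 and 1527 at a mean of at least 10 CPM. Among protein-coding genes of own sequence they were 1573 and 1091. Asking also for a 2-fold difference in the same direction from the library labelled knockdown left 1269 and 1248. With 4 units of shControl taken as 1 fragment they were 2077 and 2593. Under the 4 other scalings they ran from 1767 to 2327 higher and from 2407 to 2942 lower. TMM factors from protein-coding genes of own sequence moved the median of all measured genes by −0.12, and every log2 ratio with it. Of 300 called named genes 287 to 298 stayed called under the 4 other scalings, 270 with the whole interval beyond 2-fold, and 196 when the library labelled knockdown had to differ too. Of 1344 list counts compared across alternatives, 119 moved by over 1.5 times. Of 1812 values of named genes 172 lay outside the gene's main interval and 0 changed sign. Named genes were mostly chosen for a difference of at least 2-fold, and the scalings shifted the median by only −0.12 to 0.08. A change of sign could therefore hardly occur, and its absence says little. With 1 library a group no replicate could be left out. No paired analysis was possible because each group holds 1 library. Kind of column and group cannot be told apart, Hif1a RNA says nothing of the protein, and genes near the floor of 3 counts (0.179 CPM in overexpression) have wide intervals.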

Other observations

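Several further gene groups were measured in the same comparison, with counts again for members of own sequence to be read against 17.4% higher and 12.1% lower. Of 25 angiogenic and growth factor genes 10 were higher and 4 lower, among them the growth factor Fgf11 (11.5 CPM in overexpression, 0.455 CPM in shControl), placental growth factor Pgf (18.3 CPM in overexpression and 4.64 CPM in shControl) and Pdgfb, which had 0 counts in overexpression and was at least 14.5-fold lower. Of 9 muscle-type genes 5 were higher and 3 lower, with the muscle enolase Eno3 at 173 CPM in overexpression, 385 CPM in conventional 3D culture, 26.1 CPM in dynamic suspension and 20.9 CPM in shControl. Of 39 neural crest and neuronal genes 11 were higher and 10 lower. Of 21 oxygen-dependent demethylases 7 were higher and 0 lower, led by the histone demethylase Kdm7a (124 CPM in overexpression, 23.5 CPM in shControl). Of 32 lysosome and autophagy genes 7 were higher and 0 lower, led by the protease Ctsf (30.5 CPM in overexpression and 4.9 CPM in shControl). Among 31 genes of the citrate cycle, pyruvate and one-carbon metabolism 3 were higher, with the pyruvate dehydrogenase kinase Pdk2 at 37.9 CPM in overexpression and 6.46 CPM in shControl, and 3 lower, with the serine hydroxymethyltransferase Shmt1 at 6.43 CPM in overexpression and 50.2 CPM in shControl.

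Other groups held few calls or calls in both directions. Of 47 nuclear respiratory chain subunits 3 were higher and 3 lower, of 30 melanoma drivers and tumour suppressors 3 and 2, of 22 proteasome subunits 0 and 1, and of 53 mitochondrial ribosomal proteins 0 and 7. Few calls did not mean no shift. A log2 ratio below 0 was seen for 21 of the 22 proteasome subunits (median −0.60) and 43 of the 53 mitochondrial ribosomal proteins (median −0.54). The median of protein-coding genes of own sequence was 0.13. The driver kinase Braf had 134 CPM in overexpression, 32.4 CPM in the library labelled knockdown and 62.2 CPM in shControl, and the histone methyltransferase Ezh2 had 27.9 CPM in overexpression, 134 CPM in the library labelled knockdown and 207 CPM in shControl. Of 14 cytosolic ribosomal proteins 1 was higher and 2 lower, and with those of shared sequence 1 of 82 was higher and 21 lower. Of 20 unfolded protein response chaperones 4 were higher and 0 lower, of 11 heat shock proteins 2 and 2, of 8 antigen presentation genes 2 and 0, and of 18 iron handling genes 4 and 3. Among YAP and TEAD targets 3 of 21 were higher and 4 lower, of 25 MAPK feedback genes 6 and 3, of 9 Myc network genes 3 and 2, and of 20 apoptosis regulators outside the p53 targets 4 and 4. Of 7 polyadenylated histone genes 2 were higher and 1 lower, with the linker histone Hist1h1c at 75.9 CPM in overexpression and 9.68 CPM in shControl. Of 12 retinoid genes 0 were higher and 3 lower, and of 12 long non-coding RNAs 3 were higher and 2 lower. Of 5 genes of mitochondrial DNA with own sequence 0 were higher and 1, mt-Cytb, lower (2985 CPM in overexpression, 6263 CPM in shControl), a call lost with total-count scaling. The mitochondrial ribosomal RNA mt-Rnr1, which has no long poly(A) tail and was among the largest CPM differences, had 1235 CPM in overexpression, 172 CPM in the library labelled knockdown, 534 CPM in conventional 3D culture, 1013 CPM in dynamic suspension and 41.9 CPM in shControl. Both endothelial markers measured, of 8, were without a call.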
